A study of Homo sapiens with 6 samples.

Results

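The transcripts of 37 genes for enzymes and carriers of the tricarboxylic acid (TCA) cycle, pyruvate entry and glutamate metabolism were followed in HepG2 cells given glycine or vehicle. The genes were taken by symbol from a list of this pathway, which was drawn up with earlier results of these data known. All 37 were found among the 57500 genes listed in each library. HepG2 is an established human hepatocellular carcinoma line, used here unmodified (wild type). The 3 glycine libraries came from cells kept for 24 h in culture medium with glycine added to 10 mM, and the 3 vehicle libraries from cells kept for 24 h with vehicle only. Because the standard medium itself contains glycine, the vehicle cells were not glycine-free. The replicates were described by the submitters as independent. The comparison addresses whether glycine changes the transcripts of enzymes that feed and run mitochondrial energy metabolism.

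The TCA cycle oxidises acetyl groups to CO2 in the mitochondrial matrix and passes electrons to the respiratory chain. Pyruvate enters the matrix through the mitochondrial pyruvate carrier, and is then either oxidised to acetyl-CoA by pyruvate dehydrogenase or carboxylated to oxaloacetate. Glutamate joins the cycle through its keto acid, 2-oxoglutarate, and in liver this link serves amino acid breakdown, ammonia handling and glucose formation. Aspartate, malate and citrate leave or enter the mitochondria through dedicated carriers of the SLC25 family.

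The libraries held between 31795489 and 58815986 counts, with glycine replicate 2 the deepest. Levels are given in CPM, the counts of a gene per 1000000 counts of its library, after scaling between libraries for all but the marker genes. All 9 hepatocyte marker genes examined were detected in every library, from transthyretin (TTR, at most 139 CPM) to apolipoprotein B (APOB, at most 12902 CPM). Of the 9 markers of leukocytes, endothelium and fibroblasts, CD3E was at 0 in every library and DCN did not exceed 0.0315 CPM, while PDGFRB reached 28.3 CPM. Their summed level was between 34.4 and 36.7 CPM with vehicle and between 26.3 and 28.1 CPM with glycine. That difference lay in PDGFRB (24.7 to 28.3 against 15.9 to 18.3 CPM), while the other fibroblast marker COL1A1 was the higher with glycine (1.82 to 2.32 against at least 3.89 CPM). Vehicle replicate 2 stood apart in albumin (ALB), with 5251 CPM against 9057 and 8681 CPM in the other two vehicle libraries. The glycine libraries held between 4700 and 6495 CPM of ALB, so vehicle replicate 2 lay within their range. TTR (117 to 139 CPM against at most 108), the apolipoprotein APOA1 (1801 to 2154 against 1625 to 1708 CPM) and the hepatocyte transcription factor HNF4A (514 to 581 against 447 to 506 CPM) were lower in every glycine library than in any vehicle library. The other hepatocyte markers (ALB, AFP, APOB, SERPINA1, TF and FGB) overlapped between groups. Of all tested genes, 31.6% had no overlap between groups in either direction. The part of these marker differences in the results below was not tested. Results that rest on vehicle replicate 2 are given with and without it.

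With glycine, 7 of the 37 genes were called lower and 0 higher (edgeR quasi-likelihood test, adjusted p under 0.05 over all 15492 tested genes). The 7 were IDH1, which makes 2-oxoglutarate in the cytosol, PDHB, PC and MPC2, which handle pyruvate, and GLUD1, GLUL and GPT, which handle glutamate. They amount to 18.9% of the list, and among all tested genes 6.54% were called lower and 6.71% higher. At an unadjusted p under 0.05, 9 of the 37 genes were lower and 3 higher, together 32.4% against 27.3% of all tested genes, and DESeq2 called 7 lower and 0 higher. The median log2 change was -0.01 over the 37 genes and 0.00 over all tested genes. These are bulk measurements, in which fewer cells that express a gene and less RNA per cell cannot be told apart.

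The calls of IDH1, GLUL and GPT did not depend on a single library, and stayed past the threshold when each of the 6 libraries was left out in turn. Their edgeR adjusted p in those fits did not exceed 0.0174. The calls of PDHB, PC, MPC2 and GLUD1 depended on single libraries, so that 3 genes were called lower without glycine replicate 3, and 4 without vehicle replicate 2, glycine replicate 1 or glycine replicate 2.

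**Figure D1:**
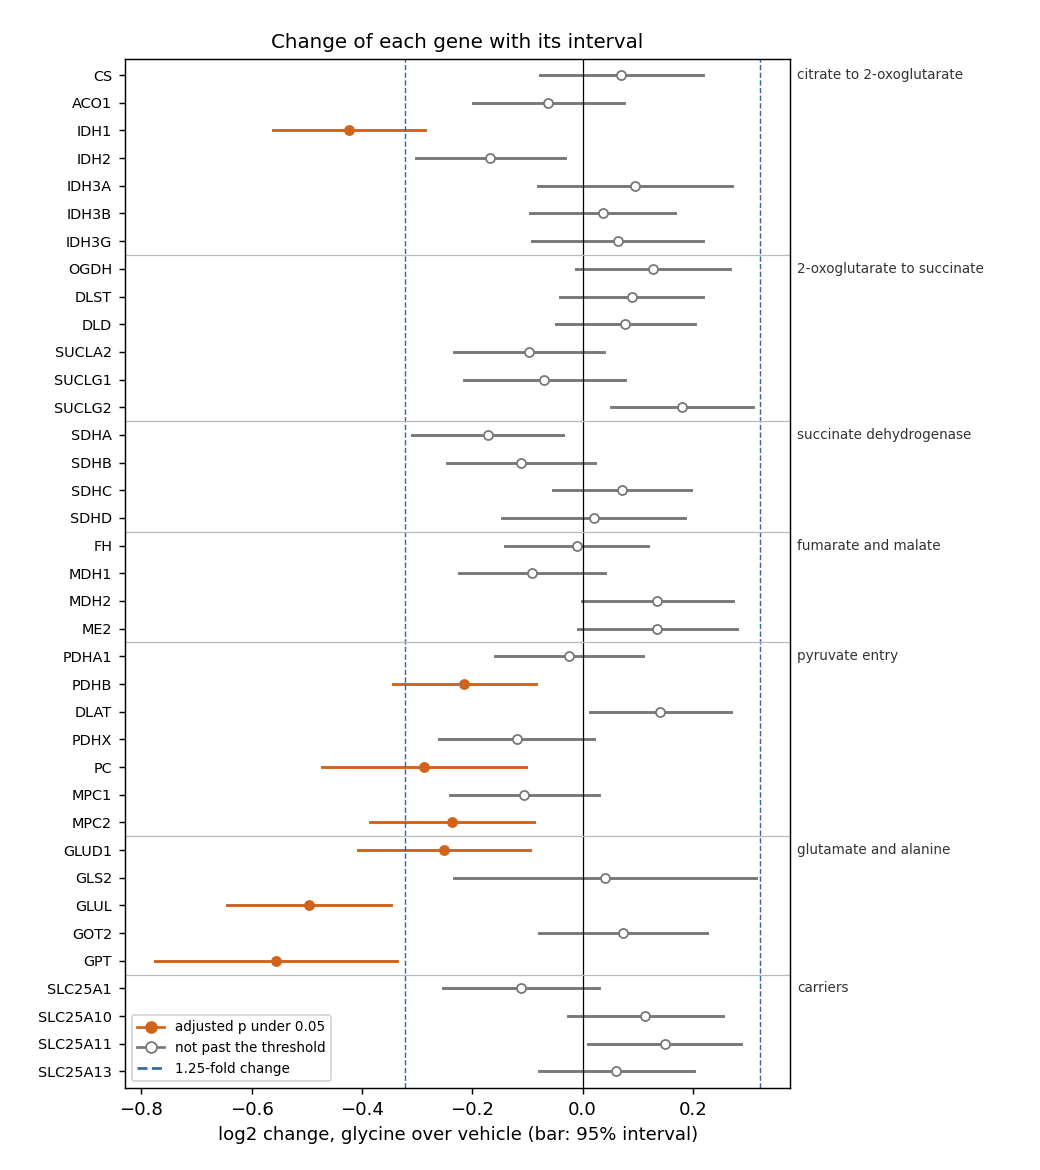
Log2 change of each of the 37 genes, glycine over vehicle, with its 95% interval (horizontal bar) from the edgeR fit to 3 libraries per group, grouped by role. Filled orange points are the 7 genes with an adjusted p under 0.05, and all lie to the left of 0. The dashed lines mark changes of 20% lower and 25% higher, and the intervals of the other 30 genes lie between them.

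GLUL encodes glutamine synthetase, the cytosolic enzyme that joins ammonia to glutamate. Its level was 549, 583 and 516 CPM in vehicle replicates 1 to 3 and 402, 382 and 385 CPM in glycine replicates 1 to 3. The groups did not overlap, and every glycine library was more than 100 CPM under the lowest vehicle library. On the log2 scale this was a change of -0.50 ± 0.0691 (s.e.), or -29.1% with a 95% interval from -36.1% to -21.4% (edgeR adjusted p = 0.000398). GLUL (ENSG00000135821) lies on chromosome 1 from 182381704 to 182392206 in GRCh38, and no other listed gene covers its exons.

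IDH1 encodes the cytosolic and peroxisomal isocitrate dehydrogenase, which yields 2-oxoglutarate and NADPH. It was at 617, 612 and 625 CPM with vehicle and at 472, 449 and 461 CPM with glycine. Within each group the libraries lay close together, and the groups were far apart. IDH1 (ENSG00000138413, chromosome 2, 208236227 to 208266074) fell by 0.42 ± 0.0639 (s.e.) on the log2 scale (edgeR adjusted p = 0.000708). Its mitochondrial counterpart IDH2 had 201 ± 10.5 CPM in the vehicle group against 179 ± 3.60 CPM in the glycine group (SD, n = 3), and its log2 change of -0.17 did not pass the threshold (edgeR adjusted p = 0.099).

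GPT encodes the cytosolic alanine aminotransferase, which exchanges the amino group between alanine and 2-oxoglutarate. It was a low transcript, at 10.4, 10.9 and 12.4 CPM with vehicle and 8.15, 6.95 and 7.94 CPM with glycine, from 260 to 446 counts per library. Every glycine library was below every vehicle library. At -0.56 ± 0.102 (s.e.) its log2 change was the most negative of the 37 genes (edgeR adjusted p = 0.00296). The gene (ENSG00000167701) lies on chromosome 8 from 144502973 to 144507174, and an antisense gene covers 7.51% of its exon length.

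**Figure D2:**
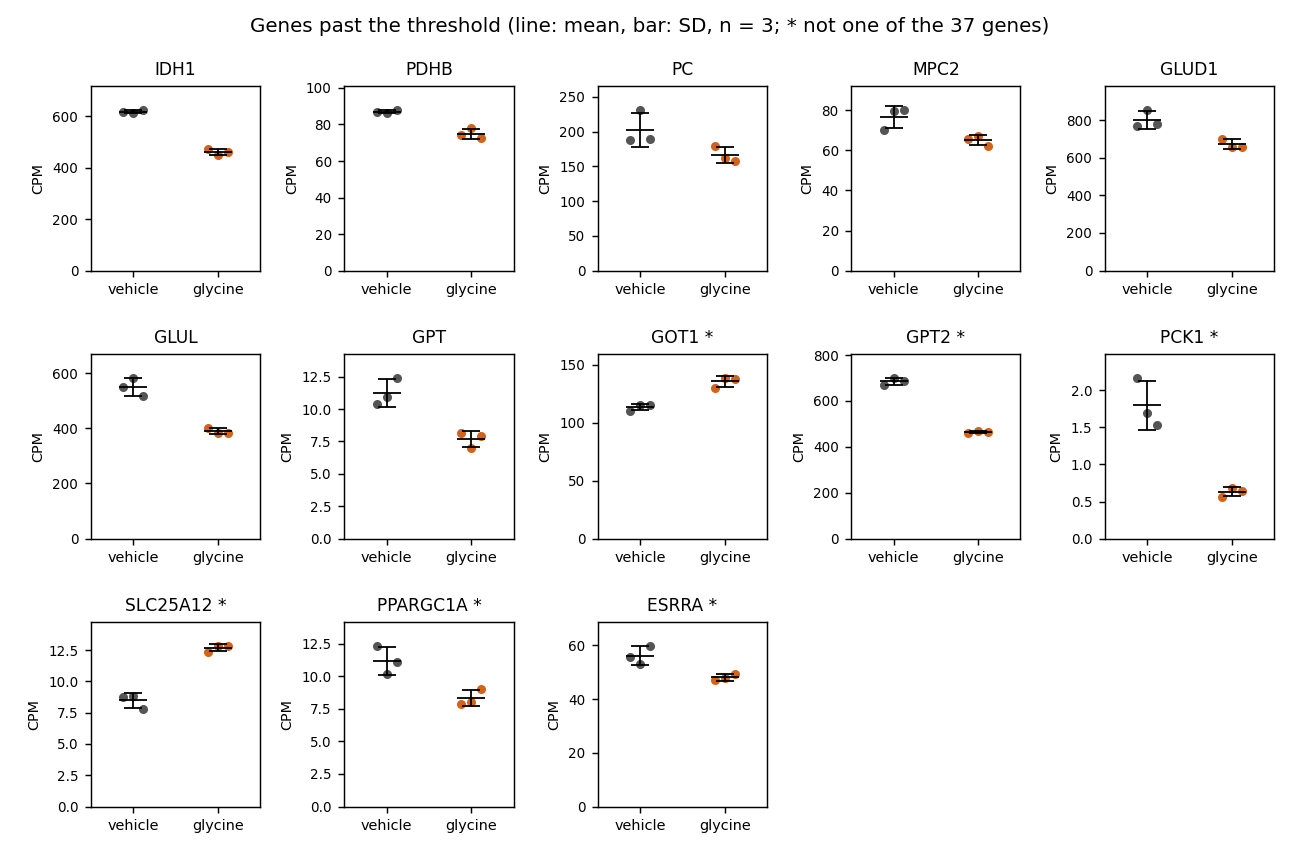
Level in CPM (vertical axis, from 0) of each gene past the threshold in each vehicle (grey) and glycine (orange) library. Black lines are group means and bars the SD of 3 libraries, and an asterisk marks genes of the pathway outside the 37. PCK1 and GPT2, lower with glycine, and SLC25A12, higher, have the widest gaps between groups on their axes. PC has 1 vehicle library above the other 2.

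GLUD1, glutamate dehydrogenase, which converts glutamate to 2-oxoglutarate and ammonia in the matrix, was the most abundant of the 37 transcripts. It was at 767, 854 and 777 CPM with vehicle and at 701, 655 and 658 CPM with glycine. The log2 change was -0.25 ± 0.0723 (s.e., edgeR adjusted p = 0.0362). Its call was lost without vehicle replicate 2 (edgeR adjusted p = 0.0852), glycine replicate 1 (0.0686), glycine replicate 2 (0.117) or glycine replicate 3 (0.107), with log2 changes between -0.29 and -0.20 over all 6 such fits. GLUD1 (ENSG00000148672, chromosome 10, 87050486 to 87094866) has a near-identical copy without introns, GLUD2, that could share reads with it, and SHLD2 covers 13.2% of its exon length on the other strand.

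The remaining glutamate genes showed no call. GOT2, the mitochondrial aspartate aminotransferase, went from 284 ± 22.4 to 299 ± 9.52 CPM (SD, n = 3), and its libraries overlapped between groups. GLS2, the liver-type glutaminase, was the lowest of the 37 at 3.85 ± 0.464 CPM in the vehicle group, and its log2 change was 0.04. The opposite-strand gene SPRYD4 covers 77.1% of the exon length of GLS2, so its count is uncertain. Of the 5 glutamate and alanine genes, 3 were called lower and 0 higher, against 6.54% lower and 6.71% higher among all tested genes.

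Pyruvate entry is served by 7 of the genes, of which 3 were called lower and 0 higher. Among all tested genes 6.54% were called lower and 6.71% higher. Each of the 3 calls was lost in some of the fits that left out 1 library. PC, pyruvate carboxylase, makes oxaloacetate from pyruvate. It was at 187, 231 and 189 CPM with vehicle and at 179, 162 and 157 CPM with glycine, so vehicle replicate 2 stood above all others while the remaining vehicle libraries were near the highest glycine library. The log2 change was -0.29 ± 0.0855 (s.e., edgeR adjusted p = 0.0417). Without vehicle replicate 2 it was -0.18 (edgeR adjusted p = 0.125), and the call was also lost without glycine replicate 2 (0.119) or glycine replicate 3 (0.130). PC (ENSG00000173599) lies on chromosome 11 from 66848233 to 66958376, and LRFN4 covers 10.5% of its exon length on the other strand.

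PDHB encodes the beta subunit of E1, the first enzyme of the pyruvate dehydrogenase complex. Its vehicle libraries were at 86.8, 86.2 and 88.0 CPM and its glycine libraries at 74.5, 78.0 and 72.4 CPM, without overlap. The log2 change was -0.21 ± 0.0599 (s.e., edgeR adjusted p = 0.0318). The call was lost without vehicle replicate 1 (0.0665), vehicle replicate 3 (0.0631), glycine replicate 1 (0.106) or glycine replicate 3 (0.115), all edgeR adjusted p. It was also lost with no filter on low counts (0.0612), when more genes were tested. PDHB (ENSG00000168291) lies on chromosome 3 from 58427630 to 58433857.

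The other genes of the complex, PDHA1, DLAT, PDHX and DLD, were not called. DLD, the E3 enzyme, is given below with OGDH and DLST. PDHA1, the alpha subunit that pairs with PDHB, had 83.9 ± 3.82 CPM in the vehicle group and a log2 change of -0.02 (95% interval -0.16 to 0.11). DLAT, the acetyltransferase core, was at 99.5, 101 and 94.7 CPM with vehicle and 111, 106 and 109 CPM with glycine, a log2 change of 0.14 (edgeR adjusted p = 0.141). PDHX, which anchors the shared E3 enzyme to the core, had a log2 change of -0.12 (edgeR adjusted p = 0.262). Whether the changes of these subunits differ from each other was not tested.

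MPC1 and MPC2 together form the mitochondrial pyruvate carrier. MPC2 was at 70.3, 79.4 and 80.2 CPM with vehicle and at 65.5, 67.4 and 62.2 CPM with glycine, and its log2 change came to -0.24 ± 0.069 (s.e.) at an edgeR adjusted p of 0.0388. When single libraries were left out, this call held without vehicle replicate 1 (0.0184) and was lost without vehicle replicate 2 (0.0958), vehicle replicate 3 (0.0965), glycine replicate 1 (0.0938), glycine replicate 2 (0.0601) or glycine replicate 3 (0.129). MPC1 had a log2 change of -0.11 (edgeR adjusted p = 0.305). MPC2 (ENSG00000143158) lies on chromosome 1 from 167916729 to 167937040, and DCAF6 covers 22.5% of its exon length on the other strand.

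Of the genes for the mitochondrial enzymes of the cycle itself, none was called in either direction. From citrate to 2-oxoglutarate, IDH1 was called and the other 6 genes were not. CS, citrate synthase, the entry step of the cycle, was at 286, 326 and 319 CPM with vehicle and 336, 323 and 319 CPM with glycine, and these ranges overlapped. Its log2 change was 0.07, with an interval from -0.08 to 0.22. ACO1, the cytosolic aconitase that also acts as an iron sensor, had a log2 change of -0.06. The 3 subunits of the NAD-linked isocitrate dehydrogenase, IDH3A, IDH3B and IDH3G, had log2 changes of 0.10, 0.04 and 0.06. Genes on the opposite strand cover 38.9% of the exon length of IDH3A.

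From 2-oxoglutarate to succinate, 0 of 6 genes were called in either direction (edgeR). At an unadjusted p under 0.05, which 27.3% of all tested genes reached, there was 1. That gene was SUCLG2, the subunit that makes succinyl-CoA ligase form GTP, at 75.4, 73.3 and 73.4 CPM with vehicle and 84.3, 81.1 and 86.3 CPM with glycine. Its log2 change of 0.18 ± 0.0595 (s.e.) was the highest of the 37 genes and did not pass the threshold (edgeR adjusted p = 0.0642). SUCLA2, the subunit that makes the same enzyme form ATP, had a log2 change of -0.10, and SUCLG1, the alpha subunit common to both forms, one of -0.07. OGDH, DLST and DLD, the 3 components of the 2-oxoglutarate dehydrogenase complex, had log2 changes of 0.13, 0.09 and 0.08. The OGDH groups overlapped, and those of DLST and DLD did not, with glycine the higher.

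Succinate dehydrogenase is both a cycle enzyme and complex II of the respiratory chain. Of its 4 subunit genes 0 were called (edgeR), and 1 had an unadjusted p under 0.05, against 27.3% of all tested genes. SDHA, the flavoprotein, was at 267, 293 and 281 CPM with vehicle and 249, 255 and 243 CPM with glycine, a log2 change of -0.17 (edgeR adjusted p = 0.0945). SDHB, the iron-sulfur subunit, had a log2 change of -0.11, and the membrane anchors SDHC and SDHD had 0.07 and 0.02. Counts in pseudogenes named after SDHA came to 6.62% of those of the gene, so reads of SDHA may have been split.

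For fumarate and malate, 0 of 4 genes were called (edgeR), and 0 had an unadjusted p under 0.05. FH, fumarase, had 87.3 ± 3.47 CPM in the vehicle group and a log2 change of -0.01. MDH2, the matrix malate dehydrogenase, was at 222, 233 and 246 CPM with vehicle and 251, 262 and 257 CPM with glycine, a log2 change of 0.14 (edgeR adjusted p = 0.188). Its cytosolic counterpart MDH1 had a log2 change of -0.09, and ME2, the mitochondrial malic enzyme, one of 0.14.

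The 4 carriers among the genes were not called, with 1 at an unadjusted p under 0.05, against 27.3% of all tested genes. SLC25A1, the citrate carrier, had 366 ± 17.3 CPM in the vehicle group and a log2 change of -0.11. SLC25A11, the 2-oxoglutarate and malate carrier, had a log2 change of 0.15 (edgeR adjusted p = 0.152). SLC25A10, the dicarboxylate carrier, and SLC25A13, an aspartate and glutamate carrier, had 0.11 and 0.06. A gene on the same strand covers 46.6% of the exon length of SLC25A10, so its count is uncertain.

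**Figure D3:**
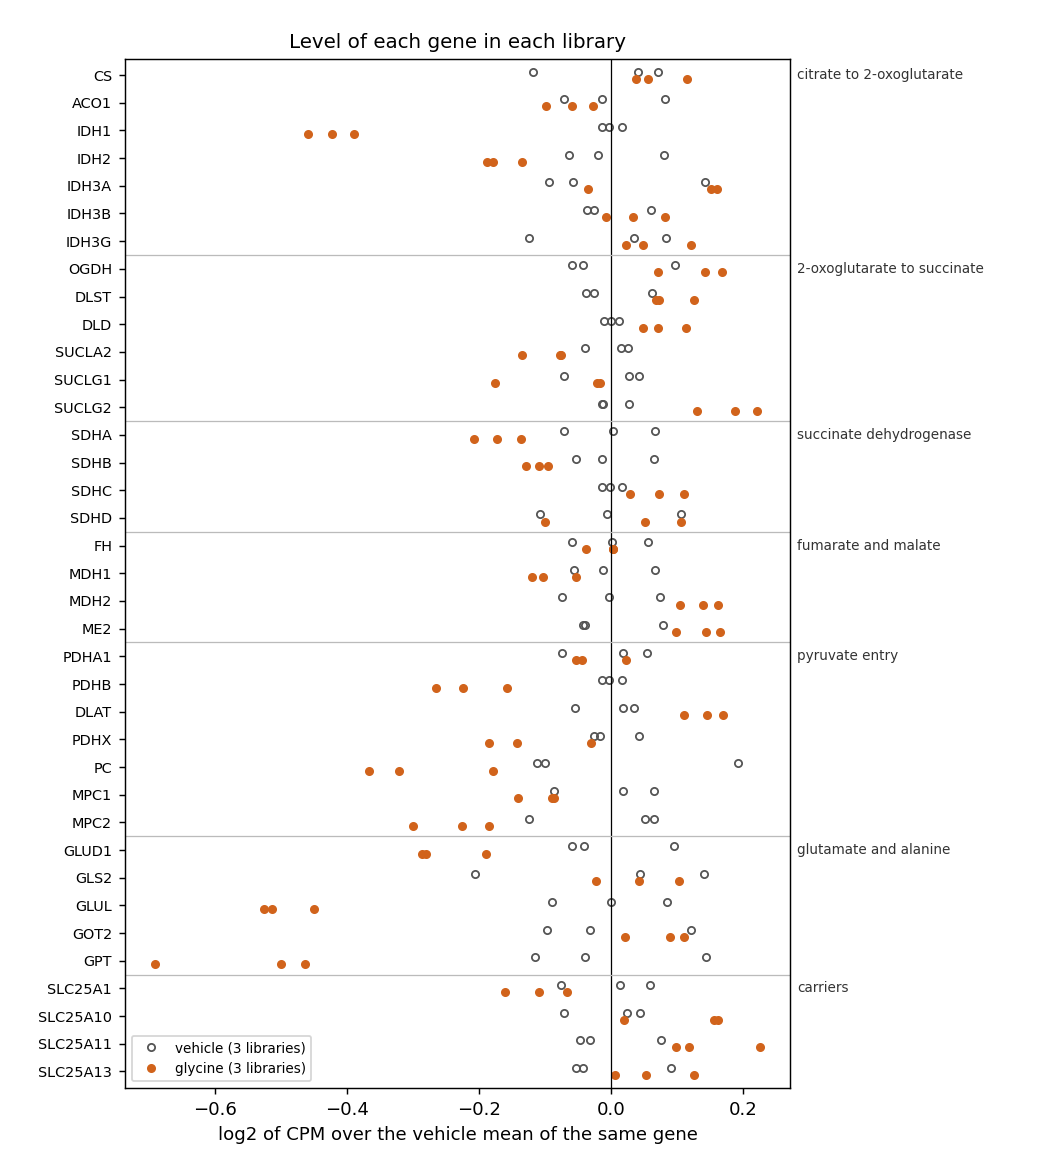
Level of each of the 37 genes in each of the 6 libraries, as the log2 of its CPM over its own vehicle mean (horizontal axis), with open grey points for vehicle and filled orange points for glycine. IDH1, GLUL, GPT and PDHB, lower with glycine, and SUCLG2, higher, separate by more than the spread of either group. Most genes lie within about 0.2 of 0.

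For single genes, the intervals give the size of change that the fit still allowed. They do not hold for all genes at once, and do not cover miscounts from overlapping genes. For all 30 genes that were not called, the 95% interval of the change lay between 20% lower and 25% higher. Over the 37 genes this held for 81.1%, and among all tested genes for 42.0%. The median standard error of the log2 change was 0.0643 for the 37 genes, and no library held fewer than 120 counts of any of them. The groups did not overlap for 21 of the 37 genes, or 56.8%, against 31.6% of all tested genes. Of these 21 genes, 13 were lower with glycine and 8 higher.

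The summed transcript level was lower with glycine, and most of the difference lay in 3 abundant genes. The 37 genes together came to 5768, 6154 and 5965 CPM with vehicle and 5572, 5470 and 5389 CPM with glycine, so the mean fell by 8.14%. IDH1, GLUL and GLUD1, the 3 highest in CPM, summed to 1967 ± 71.7 CPM in the vehicle and 1522 ± 46.7 CPM in the glycine group (SD, n = 3). The remaining 34 genes summed to 3995 ± 142 and 3956 ± 60.8 CPM, and there the groups overlapped. Per kilobase of exon, GLUD1 (227 CPM per kb), SLC25A1 (174) and IDH1 (131) ranked highest with vehicle, and GPT (4.07), ME2 (3.22) and GLS2 (0.93) lowest. These sums are a description and were not tested.

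**Figure D4:**
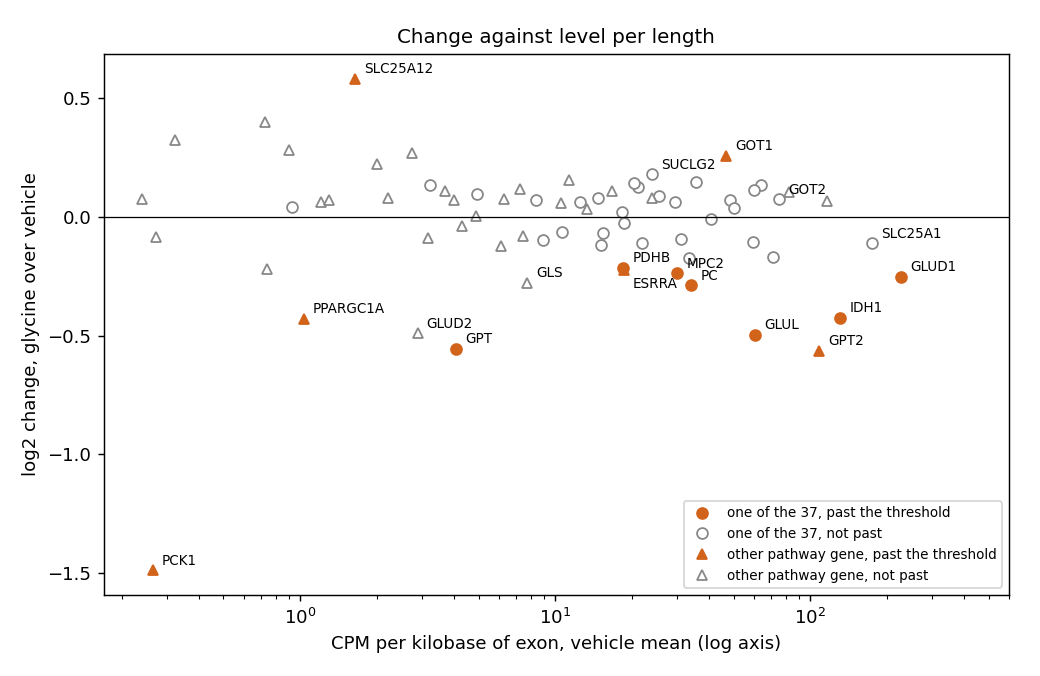
Log2 change, glycine over vehicle (vertical axis), against the vehicle mean in CPM per kilobase of exon (horizontal log axis), for the 37 genes (circles) and 35 tested genes of the same pathway outside the list (triangles). Orange marks an adjusted p under 0.05. GLUD1, IDH1, GLUL and GPT2 lie at the abundant end and below 0, while PCK1 and SLC25A12 are low transcripts with changes of -1.49 and 0.58.

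The genes were also grouped by where in the cell their proteins act, after the values were seen. Of the 5 genes for cytosolic enzymes (ACO1, IDH1, MDH1, GLUL and GPT), 3 were called lower, and of the 32 for mitochondrial proteins 4 were. Among all tested genes 6.54% were called lower. The median log2 change was -0.42 for the cytosolic genes, which is the value of IDH1, and 0.04 for the mitochondrial genes. Outside the list, called genes went both ways in either place. Cytosolic GOT1 was higher (log2 change 0.26) and PCK1 lower (-1.49), and mitochondrial SLC25A12 was higher (0.58) and GPT2 lower (-0.56). Summed, the cytosolic enzymes came to 1405, 1445 and 1392 CPM with vehicle and 1103, 1057 and 1080 CPM with glycine. Most of that difference lay in IDH1 and GLUL, while ACO1 and MDH1 overlapped between groups. The mitochondrial sums, 4363, 4709 and 4573 CPM with vehicle and 4468, 4413 and 4309 CPM with glycine, overlapped.

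Another 38 genes of the pathway outside the list were examined in the same fit. PDK4, which inactivates pyruvate dehydrogenase, and the malic enzymes ME1 and ME3 were too low to test, with at most 2 counts in any library, so a difference in them was not detectable at this depth. Of the 35 tested, 2 were called higher and 4 lower, or 17.1%, against 13.3% of all tested genes in either direction. The other 29 had log2 changes between -0.49 and 0.40 and edgeR adjusted p from 0.0558 upwards.

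GPT2, the mitochondrial alanine aminotransferase, was lower like its cytosolic counterpart GPT and had the smallest p-value of all these genes. It was at 670, 701 and 686 CPM with vehicle and 461, 467 and 464 CPM with glycine. The log2 change was -0.56 ± 0.0642 (s.e., edgeR adjusted p = 7.88e-05), with wide and clean separation of the groups. Per kilobase, GPT2 was by far the larger of the pair, and GPT over GPT2 was 0.0378 ± 0.0034 with vehicle and 0.0382 ± 0.00339 with glycine (SD, n = 3).

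SLC25A12 and GOT1 were the 2 of these 35 genes called higher. SLC25A12, an aspartate and glutamate carrier, rose from 8.79, 8.83 and 7.82 CPM to 12.4, 12.9 and 12.8 CPM, which is 0.58 ± 0.0867 (s.e.) in log2 (edgeR adjusted p = 0.000659). GOT1, the cytosolic aspartate aminotransferase, rose from 110, 115 and 115 CPM to 130, 139 and 138 CPM, which is 0.26 ± 0.0599 (s.e.) in log2 (edgeR adjusted p = 0.0126). Both had no overlap between groups. The call of GOT1 was lost without vehicle replicate 1 (edgeR adjusted p = 0.0656) or glycine replicate 3 (0.0673), and that of SLC25A12 held in all 6 such fits.

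PCK1, the cytosolic enzyme that commits oxaloacetate to glucose formation, was at 2.17, 1.69 and 1.53 CPM with vehicle and 0.564, 0.684 and 0.640 CPM with glycine, from 18 to 76 counts per library. Its change, -1.49 ± 0.212 (s.e.) in log2 (edgeR adjusted p = 0.000471), was the largest in size of the 72 tested genes of the pathway. PCK2, the mitochondrial form, was far more abundant, with 345 ± 18.3 CPM in the vehicle group, and was not called at a log2 change of 0.11. Among 7 regulators of mitochondrial genes, the coactivator PPARGC1A and the nuclear receptor ESRRA were called lower, with log2 changes of -0.43 and -0.22 (edgeR adjusted p = 0.0125 and 0.0417). PPARGC1A missed the threshold without vehicle replicate 1 (0.0504) or glycine replicate 2 (0.0506). When single libraries were left out, the call of ESRRA held without vehicle replicate 2 (0.0278) and was lost without vehicle replicate 1 (0.0773), vehicle replicate 3 (0.119), glycine replicate 1 (0.132), glycine replicate 2 (0.113) or glycine replicate 3 (0.0714), with total count scaling (0.0674) and with no filter on low counts (0.0554).

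Ratios within a library do not depend on how the libraries were scaled, and they show how partner subunits and isoenzymes stood to each other. The 15 pairs were chosen after the values of the genes were seen, and were described with no test. How often other pairs of genes have ratios without overlap was not examined. SUCLA2 over SUCLG2, both per kilobase, was 0.370, 0.367 and 0.384 with vehicle and 0.311, 0.311 and 0.304 with glycine, without overlap. Neither gene was called, and whether the transcripts of the ATP-forming and GTP-forming subunits shifted against each other was not tested. MDH1 over MDH2 was 0.483 ± 0.00489 with vehicle and 0.413 ± 0.0105 with glycine (SD, n = 3), also without overlap. PDHX over DLAT went from 0.745 ± 0.0274 to 0.621 ± 0.023, and PDHB over PDHA1 from 0.989 ± 0.0365 to 0.866 ± 0.0108.

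In succinate dehydrogenase, SDHC over SDHA was 0.251 ± 0.013 with vehicle and 0.297 ± 0.00821 with glycine, whereas SDHB over SDHA was 0.656 ± 0.0324 and 0.683 ± 0.0155 and overlapped. The SDHC annotation is 14160 bases of exon, far longer than those of its partners, which lowers its level per kilobase in both groups alike. IDH3B and IDH3G over IDH3A overlapped between groups. SLC25A12 over SLC25A13, the carrier isoforms, went from 0.0559 ± 0.00372 to 0.0801 ± 0.00493, the widest shift of the 15 ratios, at 43.5%.

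**Figure D5:**
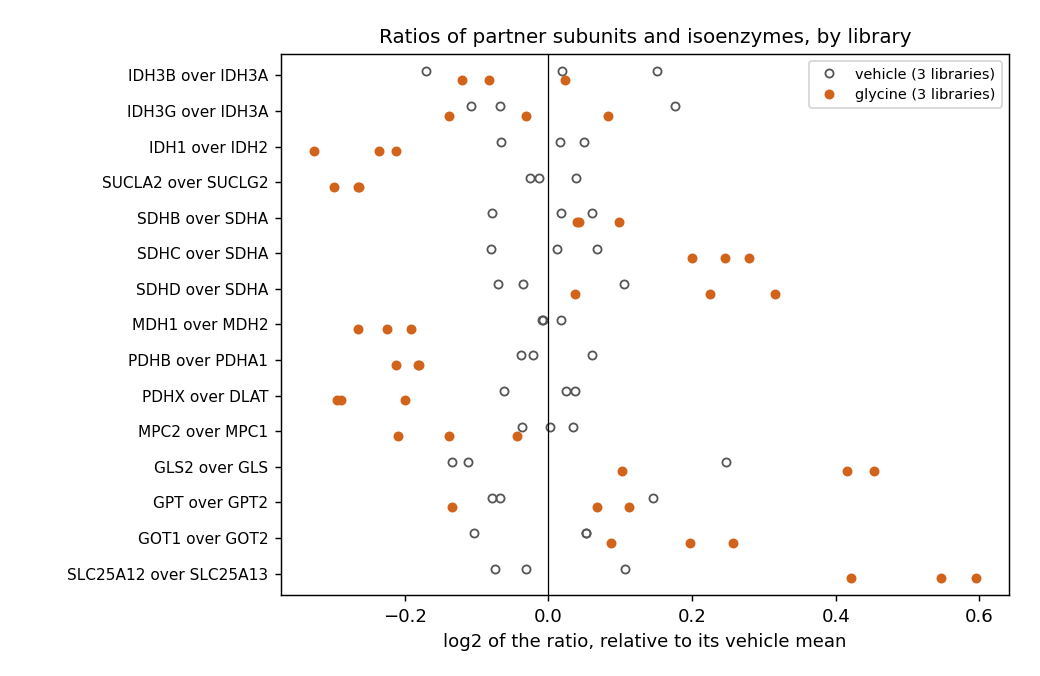
Ratio of the levels per kilobase of 15 pairs of genes in each library, as log2 relative to the vehicle mean of that ratio (horizontal axis), with open grey points for vehicle and filled orange points for glycine. The ratios of IDH1, SUCLA2, MDH1, PDHB, PDHX and, narrowly, MPC2 to their partners lie to the left of all vehicle libraries. SDHC over SDHA and GOT1 over GOT2 lie to the right, and SLC25A12 over SLC25A13 far to the right.

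Promoter sequence was examined for the binding motifs of NRF1 and of ERR, the receptor family that includes ESRRA, because both are known activators of nuclear genes for mitochondrial proteins. The RefSeq promoter table (GRCh38.p14, 250 bases before to 50 after the gene start) held 34 of the 37 genes and lacked OGDH, SDHC and GPT. The NRF1 motif (GCGCA and GCGC with any 1 base between them), read on both strands, was present in 8 of the 34 (23.5%) and in 6.28% of all 27305 promoters of that length. The 8 were IDH3A, IDH3G, SUCLA2, SDHA, SDHD, MPC2, GLUD1 and SLC25A11, of which MPC2 and GLUD1 were called lower. The ERR motif TNAAGGTCA, also read on both strands, was present in SDHD alone, 2.94% of the 34, and in 0.963% of all promoters. Of the genes called lower, those with an entry but without either motif were IDH1, PDHB, PC and GLUL. The matches below are shown for the genes called lower and for SDHD, which holds both motifs, with 10 bases on each side and the motif in capitals, 5′ to 3′ on the strand of the gene.
MPC2, NRF1 motif, chr1:167936152-167936181, minus strand: agctcggcctGCGCAAGCGCgctgccagca
GLUD1, NRF1 motif, chr10:87095032-87095061, minus strand: gagcccgcccGCGCCTGCGCgcccccgacg
SDHD, NRF1 motif, chr11:112086753-112086782, plus strand: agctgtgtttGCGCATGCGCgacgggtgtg
SDHD, ERR motif, chr11:112086874-112086902, plus strand: ggttggtggaTGACCTTGAgccctcagga
The matches in GLUD1 and the ERR match in SDHD read as the reverse complement of the motif. A match describes the letters in this window and nothing about binding.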

How the data were processed

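RNA was extracted from HepG2 cells and sequenced, with 3 libraries per group. Per the submitters' processing notes, the authors used Trimmomatic 0.36, STAR 2.5.2b and featureCounts (Subread 1.5.2) with GRCh38. The deposited values are raw read counts per gene, with 1 file per library. The strand setting and annotation release are not given in the sources used here. Of the 57500 genes, 54749 had the same coordinates in GENCODE release 29 for GRCh38.

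The counts were analysed in R 4.3.3 with edgeR 4.0.16, whose quasi-likelihood test compared the groups with no covariate (two-sided). filterByExpr dropped low genes (minimum count 10, minimum total 15), TMM scaled the libraries, and Benjamini-Hochberg adjustment ran over 15492 genes. CPM used the TMM-scaled library sizes, except for marker genes. The standard error was the log2 change divided by the square root of F, and intervals used the t quantile at 95%. No molecular identifiers were described, so statements on genes too low to test consider counting error alone. The standard errors and intervals also include the spread between replicates, which the fit estimated from the libraries.

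The genes, the lists and the pairs were chosen with earlier results of these data known. All 37 genes are named, and of the other pathway genes those called and those too low to test. Further genes were picked with their values in view, as were the grouping by location and the motifs. Replicates of a group differed by more than sampling noise (chi-square per degree of freedom from 7.59 to 29.3). Alternatives were other scaling factors, no filter, DESeq2 1.42.0, replicate number as a block, and omission of single libraries. Tested on simulated data made after the glycine and vehicle libraries (15282 genes, 200 of them changed by 1 on the log2 scale), the fit recovered 174 with 12 false calls. Changes as small as those of the 37 genes were not simulated, so recovery at their size was not tested.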

Additional observations from a re-analysis of the deposited data

How the results depend on the processing

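In every alternative 0 of the 37 genes were called higher. IDH1, GLUL, GPT, GPT2, PCK1 and SLC25A12 kept their calls in all 12 alternatives, and no called gene changed sign in any of them. When single libraries were left out, from 3 to 6 of the 37 genes were called lower, against 7 with all libraries. Over all tested genes these fits called from 587 to 926 higher and from 655 to 1010 lower, and of the other pathway genes from 1 to 2 higher and from 2 to 5 lower. They have fewer samples. Other scaling factors and DESeq2 left the number called lower at 7, and no filter gave 6.

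With the replicate number as a block, 4 of the 37 genes were called lower, and PDHB (edgeR adjusted p = 0.0675), MPC2 (0.0575), GLUD1 (0.0649) and, outside the list, ESRRA (0.0656) were not called. By the replicate numbers the libraries did not pair: after subtraction of group means, the correlation between libraries of the same number was -0.0355, -0.0210 and -0.0323, and no library correlated best with its own number. Between libraries of different numbers it was 0.313 for vehicle 1 and glycine 3, 0.280 for vehicle 2 and glycine 1, 0.278 for vehicle 3 and glycine 2, and from -0.268 to -0.254 for the other 3 pairs. Whether libraries share a culture day under other numbers was not tested.

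The interval stayed between 20% lower and 25% higher for between 24 and 30 of the 37 genes over the alternatives. Each of the 15 ratios moved by less than 1 SD when a library was left out. With 3 libraries per group it could not have moved further, so this is no check on the ratios. Depth limits the statements on PDK4, ME1 and ME3, and PCK1 rests on few counts. Counts of genes covered by others on the opposite strand depend on a strand setting that is not given in the sources used here. Among them are GLS2, IDH3A, MPC2, PDHA1 (21.3% of its exon length, by MAP3K15) and PDHB (7.63%).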
